A study of Homo sapiens with 4 samples.

Results

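The muscle microRNA loci are 3 places in the human genome at which the genes MIR1-1 and MIR133A2, MIR1-2 and MIR133A1, and MIR206 and MIR133B lie as pairs. These 6 genes, of 62663 in the annotation, were chosen by name and not by a rule on measured values. Earlier results of these data were known when they were chosen. Each gene was taken with 25 kb on each side, overlapping windows were joined to 1 window per locus, and every MYOD or H3K27ac peak that shared at least 1 bp with a window was kept. This gave 18 of the 78084 peaks of the series. The windows spanned 168.8 kb in all.

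The peaks came from ChIP-seq in RD, a cell line grown from a fusion-negative rhabdomyosarcoma (FN-RMS), which is a childhood tumor whose cells resemble muscle precursors that do not finish differentiating. The knockdown cells carried a short hairpin RNA against SKP2 (shSKP2), the subunit by which an SCF ubiquitin ligase recognizes its substrates, and the control cells carried a non-targeting hairpin (shSCR) in the same line, which the labels call wild type. MYOD, the transcription factor that commits cells to skeletal muscle, and H3K27ac, a histone mark of active enhancers and promoters, were each sequenced in 1 shSKP2 and 1 shSCR library, with Drosophila chromatin added as a spike-in. The question was which peaks at these genes were called in the SKP2 knockdown and in the control.

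With 1 library per group from 1 line, no difference below has a replicate check and no p-value between shSKP2 and shSCR cells can be given. A peak list measures neither microRNA levels nor SKP2 itself, so the knockdown cannot be checked from it. Where no peak was called, the signal may still lie just under the cutoff. At the lowest background in each list, a call took 9 fragments for MYOD in shSKP2 cells and 8 in shSCR cells, and 8 for H3K27ac in each.

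The knockdown lists were longer for both antibodies: 8457 MYOD peaks over 2.72 Mb in shSKP2 cells against 5814 over 1.79 Mb in shSCR cells, and 38457 H3K27ac peaks over 23.7 Mb in shSKP2 cells against 25356 over 11.6 Mb in shSCR cells. The depth of the libraries is not in the lists. The lowest background that the peak caller used, which moves with depth, was 1.94 fragments in shSKP2 cells and 1.48 in shSCR cells for MYOD, a ratio of 1.31, and 1.61 in shSKP2 cells and 1.75 in shSCR cells for H3K27ac, a ratio of 0.920. The part of depth in the differences below was not tested. H3K27ac peaks lay within 2 kb of the start of 5 of 9 muscle lineage genes in shSKP2 cells and 4 of 9 in shSCR cells. MYOD1, MYOG, CDH15 and CHRNA1 had such a peak in each group and MEF2C in shSKP2 cells alone, while MYF5, MYF6, DES and MYMK had none in either. In each group 0 of 4 blood genes, 1 of 3 endothelial genes (TEK) and 1 of 3 epithelial genes (KRT18) had such a peak. Of the 3 heart genes, 0 had a peak in shSKP2 cells and 1 (NKX2-5) in shSCR cells.

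MicroRNAs are short RNAs cut from hairpins in longer transcripts, and they repress mRNAs that pair with their seed, the stretch near the 5′ end. miR-1, miR-206 and the miR-133 family are enriched in muscle: miR-1 and miR-206 favor differentiation of myoblasts, miR-133 has been tied both to proliferation of myoblasts and to differentiation, and miR-206 is particular to skeletal muscle whereas miR-1 and miR-133a are also abundant in the heart. Myogenic factors and MEF2 and SRF are known regulators of these genes. MYOD binds E-boxes, short DNA words found in many muscle enhancers.

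The mature sequences below are miR-206, miR-133b and the 3p arms of miR-1 and miR-133a, shown because they share a pair of seeds among the 6 genes. The 5p arms have seeds of their own and are not shown. All 6 genes matched an entry of the RefSeq table of GRCh38.p14. Capitals mark the seed, bases 2 to 8 counted from the 5′ end.
hsa-miR-1-3p: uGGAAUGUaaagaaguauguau
hsa-miR-206: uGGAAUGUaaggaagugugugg
hsa-miR-133a-3p: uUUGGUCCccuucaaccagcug
hsa-miR-133b: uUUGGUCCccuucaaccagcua
MIR1-1 and MIR1-2 encode the same miR-1-3p, and miR-206 has the same seed, GGAAUGU, with 18 of 22 bases identical to it. With miR-1-3p first and positions counted from the 5′ end, the substitutions to miR-206 were A11G, A17G, A21G and U22G. MIR133A2 and MIR133A1 encode the same miR-133a-3p, with the seed UUGGUCC, and miR-133b differed from it by G22A only. By the sequences shown, each locus holds 1 gene of each seed.

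The hairpins differed in how they sit in their surroundings (hg38, GENCODE). MIR1-1 (chr20:62554306-62554376, plus strand) and MIR133A2 (chr20:62564912-62565013, plus strand) lay 10.5 kb apart, both in intron 2 of the noncoding host gene MIR1-1HG. MIR1-2 (chr18:21829004-21829088, minus strand) and MIR133A1 (chr18:21825698-21825785, minus strand) lay 3.22 kb apart in exon 3 of the host gene MIR133A1HG, which runs antisense inside intron 12 of MIB1, a ubiquitin ligase of the Notch pathway. MIR206 (chr6:52144349-52144434, plus strand) was intergenic, and MIR133B (chr6:52148923-52149041, plus strand), 4.49 kb from it, lay in intron 1 of LINCMD1 on the opposite strand. LINCMD1 is a muscle long noncoding RNA known to sponge miR-133 and other microRNAs.

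MYOD peaks were called at the MIR1-1/MIR133A2 and MIR206/MIR133B loci and not at MIR1-2/MIR133A1. MYOD covered 1.33 kb in 3 peaks in shSKP2 cells and 0.471 kb in 1 peak in shSCR cells at MIR1-1/MIR133A2. At MIR206/MIR133B it covered 0.635 kb in 2 peaks in shSKP2 cells and 0.316 kb in 1 peak in shSCR cells. H3K27ac covered 0.853 kb in 2 peaks in shSKP2 cells and 0 kb in shSCR cells at MIR1-1/MIR133A2, so that this locus carried the mark in called peaks in the knockdown list alone. At MIR1-2/MIR133A1 H3K27ac covered 0.550 kb in 1 peak in shSKP2 cells and 0 kb in shSCR cells. At MIR206/MIR133B it covered 2.16 kb in 5 peaks in shSKP2 cells and 1.57 kb in 3 peaks in shSCR cells, the only locus with H3K27ac peaks in both groups. Over the 3 loci together MYOD covered 1.97 kb in shSKP2 cells and 0.787 kb in shSCR cells, and H3K27ac 3.57 kb in shSKP2 cells and 1.57 kb in shSCR cells. At no locus was the cover smaller in shSKP2 cells.

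**Figure D1:**
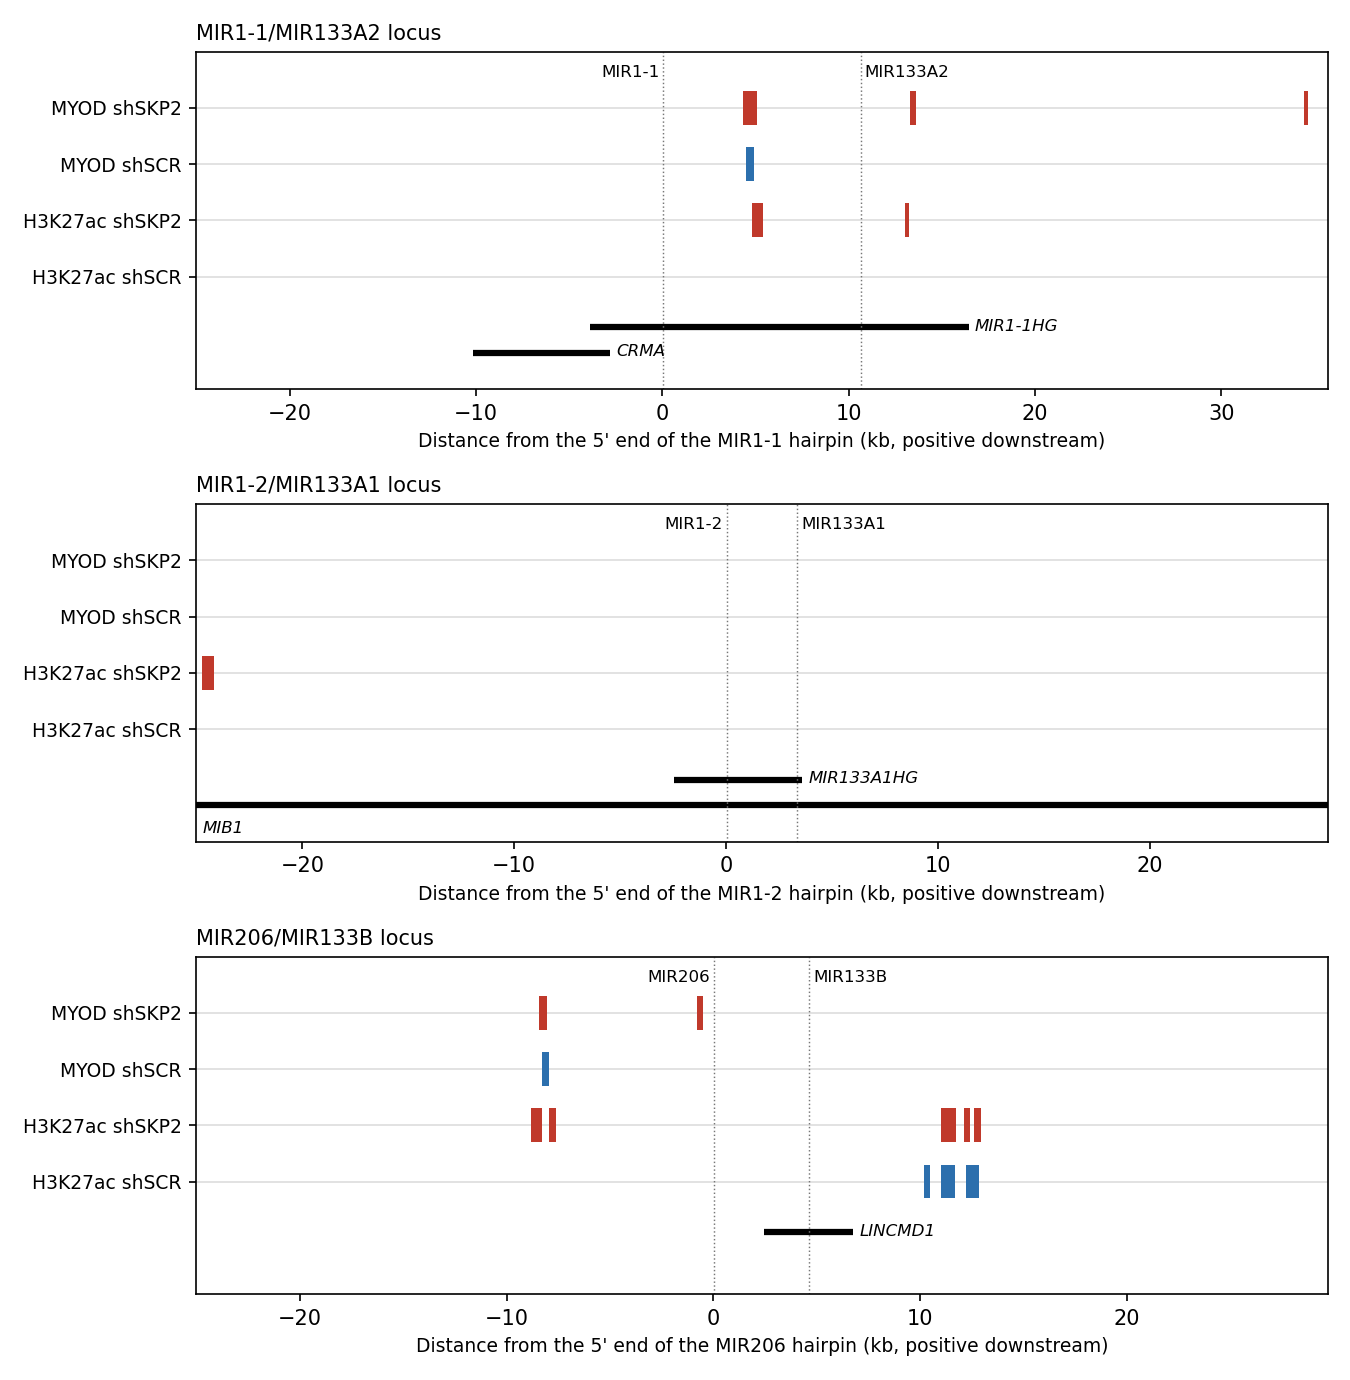
Peaks called at the 3 loci, drawn to scale by distance in kb from the 5′ end of the first hairpin of each pair (dotted lines, hairpins; black bars, annotated genes; red, shSKP2; blue, shSCR). MYOD peaks stand 4.66 kb downstream of MIR1-1 and 8.16 kb upstream of MIR206 in both groups, and the peaks 13.4 kb downstream of MIR1-1 and 0.639 kb upstream of MIR206 are in shSKP2 cells alone.

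**Figure D2:**
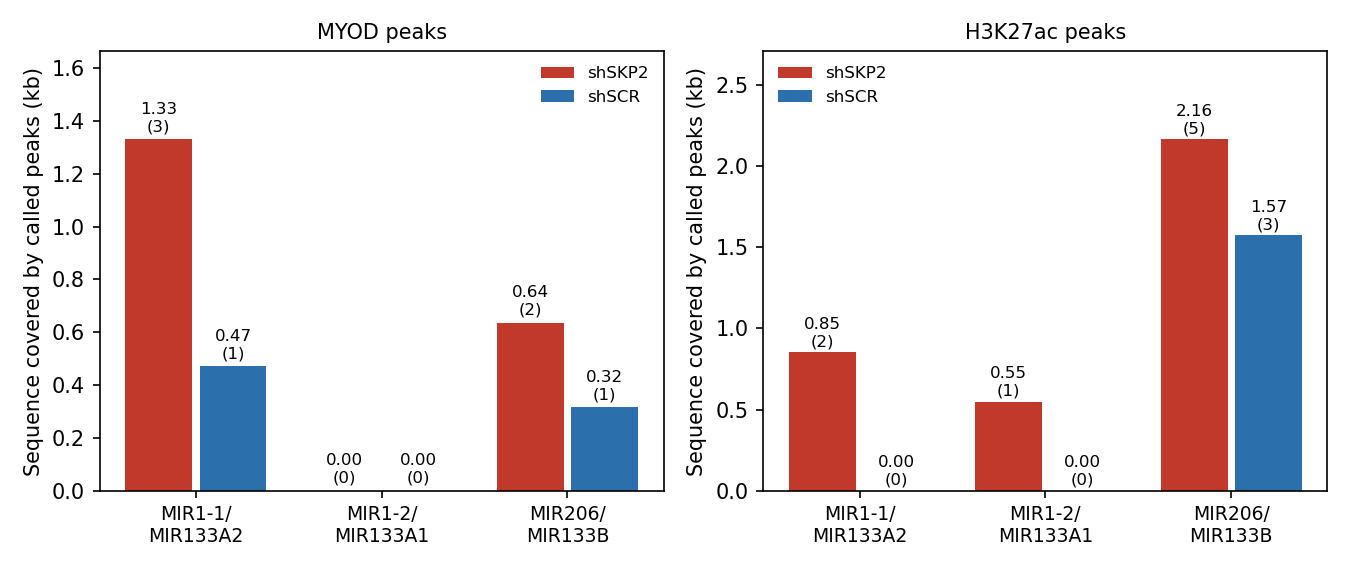
Sequence covered by called peaks in kb, for MYOD (left) and H3K27ac (right), at each locus in the shSKP2 and shSCR library, with the number of peaks in parentheses; 1 library per bar, so no error bar. MIR1-1/MIR133A2 has H3K27ac cover of 0.853 kb in shSKP2 cells against 0 in shSCR cells, and MIR1-2/MIR133A1 has no MYOD cover in either.

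The counts of members have to be read against all genes, because the knockdown lists were longer throughout. In windows drawn the same way, 4 of the 6 microRNA genes (those at MIR1-1/MIR133A2 and MIR206/MIR133B) had more MYOD cover in shSKP2 cells, against 20.9% of all genes and 20.9% of the 1879 microRNA genes. More H3K27ac cover in shSKP2 cells was seen at 5 of the 6, all but MIR133A1, against 52.8% of all genes and 49.8% of microRNA genes. These shares count windows with no peak in either group, 44221 of all 62663 for MYOD and 27339 for H3K27ac. Elsewhere more cover in shSKP2 cells was the commoner direction, at 13087 genes against 5329 with less for MYOD. For H3K27ac these were 33097 and 2215 genes. The counts of members thus depend in part on whether a window held any peak. A peak in shSKP2 cells with none in shSCR cells was found at 0 of the 6 for MYOD, against 10.8% of all genes and 10.5% of microRNA genes. For H3K27ac it was found at 3 of the 6 (MIR1-1, MIR133A2 and MIR1-2), against 10.2% of all genes and 11.3% of microRNA genes. Members of a pair have overlapping windows and can share peaks, so the 6 genes stand for 3 loci. MIR206 and MIR133B shared all of theirs. A MYOD peak of shSKP2 cells fell in the window of MIR133A2 but not of MIR1-1, and the H3K27ac peak of MIR1-2 missed the window of MIR133A1. Windows of neighboring genes overlap in the background too. The median gene window held 0 kb of MYOD in each group, and 0.414 kb of H3K27ac in shSKP2 cells against 0 kb in shSCR cells.

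The MIR1-1/MIR133A2 locus had the widest difference in MYOD cover, 0.859 kb. Its strongest MYOD peak lay between the hairpins, in intron 2 of MIR1-1HG, with the summit 4.66 kb downstream of MIR1-1 and 5.95 kb upstream of MIR133A2. In shSKP2 cells it ran over 737 bp (chr20:62558643-62559379) at 6.44-fold over local background, from 37 fragments at the summit over a background of 4.90 (95% Poisson interval 4.59 to 8.81). The fold is the number of fragments stacked at the summit over the number that the peak caller expected there, with 1 added to each. In shSCR cells it ran over 471 bp (chr20:62558785-62559255), wholly inside the knockdown peak, at 5.04-fold from 21 fragments over 3.37 (3.21 to 7.58). The summits were 20 bp apart. The ratio of folds was 1.28, and the intervals, which cover counting error only, overlapped. By −log10 p the peak stood above 76.6% of the list in shSKP2 cells and 44.7% in shSCR cells.

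The other MYOD peaks of that locus were called in shSKP2 cells alone. The first (chr20:62567585-62567937, 353 bp) lay in intron 3 of MIR1-1HG, 2.76 kb downstream of MIR133A2, at 5.66-fold (3.95 to 7.89) from 33 fragments. It stood above 68.8% of the knockdown list, and the nearest shSCR peak was 8.33 kb away. The second (chr20:62588754-62588993, 240 bp), intergenic and 23.9 kb downstream of MIR133A2, was weaker, at 3.81-fold (2.34 to 5.91) from 18 fragments, above 25.3% of the list.

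H3K27ac at this locus was called beside both MYOD sites within MIR1-1HG, in shSKP2 cells alone. A peak of 613 bp (chr20:62559124-62559736) overlapped the MYOD peak between the hairpins, with its summit 254 bp from that of MYOD, at 6.07-fold (4.07 to 8.73) from 27 fragments over 3.61. A peak of 240 bp (chr20:62567323-62567562) ended 22 bp short of the intron 3 MYOD peak, at 3.91-fold (2.12 to 6.74) from 11 fragments, above only 7.05% of its list. The nearest H3K27ac peaks of shSCR cells were 46.1 kb and 54.3 kb from them. The annotated start of MIR1-1HG, the gene that holds both hairpins, had no peak: its nearest MYOD peak was 8.20 kb away in shSKP2 cells and 8.34 kb in shSCR cells, and its nearest H3K27ac peak 8.68 kb in shSKP2 cells and 37.4 kb in shSCR cells.

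At MIR206/MIR133B the strongest MYOD peak of all 3 loci lay upstream of both hairpins, 8.16 kb from MIR206 in each group. It ran over 367 bp in shSKP2 cells (chr6:52135930-52136296) at 9.43-fold (7.03 to 12.4) from 49 fragments over 4.30. In shSCR cells it ran over 316 bp (chr6:52136075-52136390) at 8.51-fold (6.11 to 11.6) from 39 fragments over 3.70. It was a strong peak in each list, above 90.9% of the peaks in shSKP2 cells and 83.1% in shSCR cells. The summits were 8 bp apart, the peaks shared 222 bp, and the ratio of folds was 1.11, with overlapping intervals.

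The MYOD peak nearest to any of the 6 hairpins was called in shSKP2 cells alone. Its summit lay 0.639 kb upstream of MIR206 and its edge 0.525 kb (chr6:52143557-52143824, 268 bp). It reached 5.16-fold (3.03 to 8.30) from 15 fragments over 2.10 and stood above 37.6% of the list. Its −log10 p was 9.02, and with peaks under 10 left out the difference in MYOD cover at this locus was 0.051 kb in place of 0.319 kb. The nearest shSCR peak was 7.17 kb from it. No H3K27ac peak lay close to it, the nearest in shSKP2 cells being 6838 bp away.

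H3K27ac at MIR206/MIR133B fell into an upstream part, called in shSKP2 cells alone, and a downstream part, called in both groups. Upstream, a peak of 519 bp (chr6:52135541-52136059, 4.49-fold, 3.20 to 6.15) overlapped the shared MYOD peak, and a peak of 329 bp (chr6:52136390-52136718, 3.28-fold, 2.20 to 4.72) began 93 bp past it, so that the mark flanked the MYOD summit on both sides. The first stood above 65.4% of its list and the second above only 28.6%. The second had a −log10 p of 8.06, so with peaks under 10 left out the mark no longer flanked the summit. In shSCR cells the nearest H3K27ac peak to the MYOD peak at this site was 18143 bp away. Downstream, 11 to 13 kb from MIR206 and beyond LINCMD1, shSKP2 cells had peaks of 706 bp (chr6:52155348-52156053, 3.70-fold, 2.60 to 5.13), 298 bp (chr6:52156441-52156738, 3.66-fold) and 312 bp (chr6:52156957-52157268, 3.46-fold). In shSCR cells the same stretch held peaks of 648 bp (chr6:52155373-52156020, 4.07-fold, 2.75 to 5.82) and 617 bp (chr6:52156558-52157174, 3.59-fold, 2.35 to 5.27), the second of which overlaps part of each of the last pair in shSKP2 cells. The folds of these shared peaks differed by less than their counting intervals. A further peak of 308 bp in shSCR cells alone (chr6:52154534-52154841, 2.78-fold, 1.73 to 4.27) stood above only 4.25% of its list and lay 0.506 kb from the nearest peak of shSKP2 cells.

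MIR1-2/MIR133A1 was the locus without MYOD. The start of MIR1-2 was 717 kb from any MYOD peak in shSKP2 cells and 1262 kb in shSCR cells, and the start of MIR133A1 714 kb in shSKP2 cells and 1265 kb in shSCR cells. Its H3K27ac peak (chr18:21853264-21853813, 550 bp, 7.0-fold, 4.70 to 10.1, 27 fragments over 3.0) was called in shSKP2 cells alone, above 72.7% of the list, and the nearest shSCR peak was 112 kb from it. It lay in intron 18 of MIB1, 24.3 kb upstream of MIR1-2. This peak was the closest to a window's edge on the inside, 275 bp from it, and it fell in the window of MIR1-2 but not in that of MIR133A1, whose start was 27.5 kb from it. The next inside was the distal MYOD peak at MIR1-1/MIR133A2, 1020 bp from the edge, and the first outside was an H3K27ac peak 2.17 kb beyond the edge at MIR206/MIR133B.

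**Figure D3:**
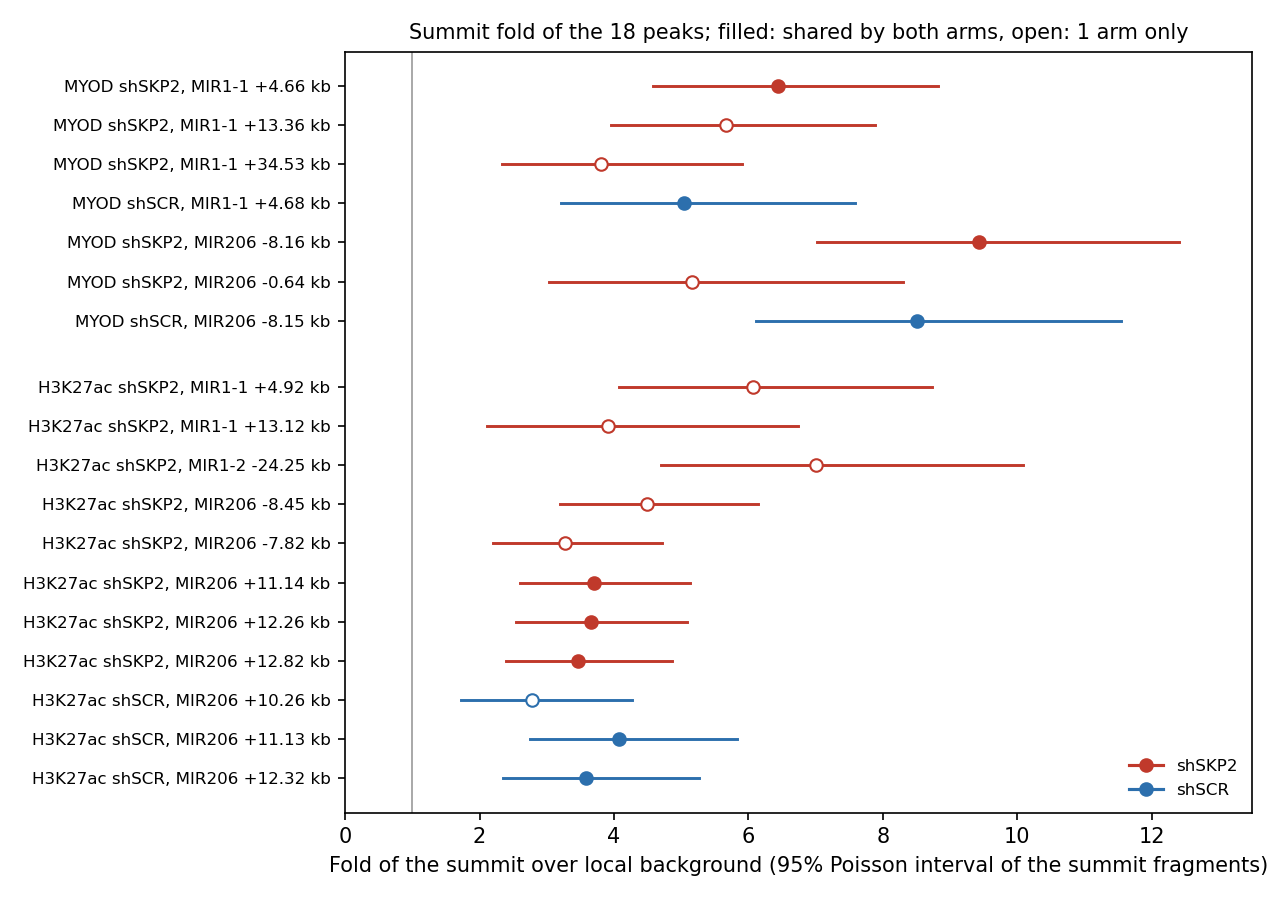
Fold of each of the 18 peaks at its summit over local background (points), with the 95% Poisson interval of the summit fragments (bars, counting error only), named by distance from the first hairpin of the locus; red, shSKP2; blue, shSCR; filled, called in both groups; open, called in 1 group. The MYOD peak 8.16 kb upstream of MIR206 is highest, at 9.43-fold in shSKP2 cells and 8.51-fold in shSCR cells, and the intervals of both shared MYOD peaks overlap between groups.

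Counted by peak, 3 of the 5 MYOD peaks of shSKP2 cells at the 3 loci had no overlapping shSCR peak, against 55.9% of the whole knockdown list, while 0 of the 2 MYOD peaks of shSCR cells lacked a shSKP2 peak, against 35.9% of the control list. For H3K27ac, 5 of the 8 peaks of shSKP2 cells had no shSCR counterpart, against 48.6% of the list, and 1 of the 3 of shSCR cells had no shSKP2 counterpart, against 13.6%. For shSKP2 cells both counts were near the share of the whole list. MYOD and H3K27ac peaks overlapped at 2 of the 5 MYOD peaks in shSKP2 cells, against 51.5% of the list, and at 0 of the 2 in shSCR cells, against 38.9%. Both of the MYOD peaks with H3K27ac were the shared ones, 1 at each of the loci with MYOD. At these sites MYOD was called in both groups and H3K27ac overlapped it in the knockdown alone. How common this was among all shared MYOD peaks was not counted, so it cannot be called particular to these loci. H3K27ac peaks covered 23.7 Mb in shSKP2 cells against 11.6 Mb in shSCR cells.

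The sequences under the MYOD summits are shown because they hold the words that MYOD binds. Each runs 100 bp to each side of the shSKP2 summit on the plus strand of hg38, and capitals mark E-boxes of 2 kinds. The first, CAGCTG, reads the same on both strands. The second, CAGGTG, appears as CACCTG where it lies on the other strand, so both strands were searched.
Between MIR1-1 and MIR133A2, called in both groups, chr20:62558867-62559067: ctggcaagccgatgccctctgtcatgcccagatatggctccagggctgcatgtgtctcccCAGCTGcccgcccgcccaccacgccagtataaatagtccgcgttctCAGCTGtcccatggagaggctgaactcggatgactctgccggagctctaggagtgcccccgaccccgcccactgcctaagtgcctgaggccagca
Downstream of MIR133A2 in intron 3, shSKP2 alone, chr20:62567567-62567767: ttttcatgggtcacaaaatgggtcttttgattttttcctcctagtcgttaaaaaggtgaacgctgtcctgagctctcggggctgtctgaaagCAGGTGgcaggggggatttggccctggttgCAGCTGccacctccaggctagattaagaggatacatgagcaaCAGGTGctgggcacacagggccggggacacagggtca
Distal of MIR133A2, shSKP2 alone, chr20:62588740-62588940: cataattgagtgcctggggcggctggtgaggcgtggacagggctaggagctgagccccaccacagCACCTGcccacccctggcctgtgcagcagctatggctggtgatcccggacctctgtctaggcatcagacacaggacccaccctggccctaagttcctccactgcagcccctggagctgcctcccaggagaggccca
Upstream of MIR206, called in both groups, chr6:52136086-52136286: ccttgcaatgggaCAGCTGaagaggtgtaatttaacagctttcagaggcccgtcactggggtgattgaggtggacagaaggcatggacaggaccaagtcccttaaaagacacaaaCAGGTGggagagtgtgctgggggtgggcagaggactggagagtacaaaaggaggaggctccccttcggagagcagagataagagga
Next to MIR206, shSKP2 alone, chr6:52143610-52143810: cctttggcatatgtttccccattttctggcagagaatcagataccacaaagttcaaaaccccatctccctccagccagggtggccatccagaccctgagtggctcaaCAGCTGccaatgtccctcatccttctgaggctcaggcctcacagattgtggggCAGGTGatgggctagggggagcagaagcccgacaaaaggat
All 5 sites of shSKP2 cells held such a word, as did 85.6% of the whole list, and both sites of shSCR cells did, as did 86.7% of theirs. CAGCTG itself was at 4 of the 5 sites of shSKP2 cells, against 60.7% of the list, and at 2 of the 2 of shSCR cells, against 64.3%, the distal site on chromosome 20 being the exception. The word nearest to the summit was centered 8.5 bp from it between MIR1-1 and MIR133A2, 5.5 bp in intron 3, 32.5 bp at the distal site, 17.5 bp upstream of MIR206 and 9.5 bp next to MIR206. A match is a description of the sequence and not a measured contact, and most peaks of either list held such a word.

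The starts of the host genes of miR-1 and miR-133a, which held no peak in either group, have a like stretch of sequence near them. It is shown because these host genes are paralogous while the peaks around them differed. Both are from RefSeq promoters (GRCh38.p14), in the direction of transcription, and capitals mark CAGCTG. Counted from the RefSeq start, they run from -153 to -84 bp for MIR1-1HG and from -154 to -85 bp for MIR133A1HG. The GENCODE start of MIR133A1HG, chr18:21831539, falls inside its stretch, and the distances to peaks are measured from GENCODE starts.
MIR1-1HG (chr20:62550300-62550369, plus strand): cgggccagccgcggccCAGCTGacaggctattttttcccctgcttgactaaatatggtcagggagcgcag
MIR133A1HG (chr18:21831491-21831560, minus strand): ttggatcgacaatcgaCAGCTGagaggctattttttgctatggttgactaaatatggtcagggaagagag
The stretches were identical at 49 of 70 bases, or 70%. They were picked as the best ungapped match of 70 bases between the promoters, and no background for such a match was computed. CAGCTG occurred in 17.9% of 35116 promoters of the same 300 bp span. The start of MIR133A1HG was 719 kb from the nearest MYOD peak in shSKP2 cells and 1260 kb in shSCR cells, and 21.7 kb from the nearest H3K27ac peak in shSKP2 cells and 90.3 kb in shSCR cells.

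Other genes that share these windows had no peak over their starts. At MIR1-1/MIR133A2 these were CRMA, a noncoding gene antisense to the start of MIR1-1HG, the pseudogene RPL7P3, and the noncoding genes ENSG00000289548 and ENSG00000264490. The start of CRMA was 7.12 kb from a MYOD peak in shSKP2 cells and 7.26 kb in shSCR cells, and from an H3K27ac peak 7.60 kb in shSKP2 cells and 38.5 kb in shSCR cells. At MIR1-2/MIR133A1, the small nucleolar RNA gene SNORA73 started 35.6 kb from an H3K27ac peak in shSKP2 cells and 76.3 kb in shSCR cells, and MIB1 had an H3K27ac peak 0.763 kb from its own start in shSKP2 cells, outside the window, against 34.6 kb in shSCR cells. The start of LINCMD1 lay 4.23 kb from an H3K27ac peak in shSKP2 cells and 3.42 kb in shSCR cells, and 7.30 kb from a MYOD peak in shSKP2 cells and 14.7 kb in shSCR cells.

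The genes that act with these microRNAs in muscle were described by the same windows, and long genes have longer windows. Of all 62663 genes, MYOD cover was larger in shSKP2 cells at 13087, smaller at 5329 and 0 in both groups at 44221, and the MYOD counts of the lists below stand beside these. The other muscle microRNA genes were MIR208A and MIR208B and MIR499A and MIR499B, which sit in introns of myosin heavy chain genes, and MIR486-1 and MIR486-2. Of these 6, 4 had more H3K27ac cover in shSKP2 cells, 0 had less and 2 (MIR499A and MIR499B) had none in either group, with a median difference of 0.470 kb (median cover 1.32 kb in shSKP2 cells and 0.849 kb in shSCR cells). The widest differences were at MIR486-1 and MIR486-2, which share their window, with 2.79 kb in shSKP2 cells and 1.68 kb in shSCR cells. MYOD cover was larger in shSKP2 cells at 2, smaller at 1 (MIR208B, 0.260 kb in shSKP2 cells and 0.380 kb in shSCR cells) and 0 in both groups at 3.

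Of the 11 factors known to act on muscle genes of this kind (the myogenic factors MYOD1, MYOG, MYF5 and MYF6, the MEF2 factors MEF2A, MEF2C and MEF2D, SRF and its coactivators MYOCD, MRTFA and MRTFB), 10 had more H3K27ac cover in shSKP2 cells and 1, MYOCD, the cardiac and smooth muscle coactivator, had none in either group. Their median cover was 3.02 kb in shSKP2 cells and 0.876 kb in shSCR cells, with a median difference of 1.65 kb. The widest differences were at MRTFA, 7.84 kb in shSKP2 cells and 2.76 kb in shSCR cells, and at MYOG, which drives terminal differentiation, 3.75 kb in shSKP2 cells and 0.876 kb in shSCR cells. The window of MRTFA spanned 276.4 kb and that of MYOG 52.9 kb. MYOD cover was larger in shSKP2 cells at 4 factors, smaller at 3 and 0 in both groups at 4.

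Of 25 genes reported elsewhere as targets of miR-1, miR-133 or miR-206, 22 had more H3K27ac cover in shSKP2 cells, 1 had less and 2 (HAND2 and IGF1) had none in either group. Their median cover was 1.59 kb in shSKP2 cells and 1.01 kb in shSCR cells, and the median difference was 0.551 kb. The widest differences were at UTRN, which encodes the dystrophin relative utrophin, 9.0 kb in shSKP2 cells and 3.48 kb in shSCR cells, and at HDAC4, a repressor of MEF2, 7.45 kb in shSKP2 cells and 4.09 kb in shSCR cells. Both are long genes, with windows of 617.7 kb and 403.5 kb, and cover was not scaled to window length. PAX7, a factor of muscle stem cells, had less, 1.50 kb in shSKP2 cells and 1.71 kb in shSCR cells. MYOD cover of the targets was larger in shSKP2 cells at 11, smaller at 5 and 0 in both groups at 9. UTRN was among those with less, 0.233 kb in shSKP2 cells and 1.26 kb in shSCR cells. PTBP2, a splicing regulator, and CDC42, a small GTPase, had MYOD cover of 0.247 kb and 0.185 kb in shSKP2 cells and 0 kb in shSCR cells. For comparison, 33097 of all 62663 genes had more H3K27ac cover in shSKP2 cells, 2215 had less and 27351 had equal cover, mostly none, with a median difference of 0.135 kb. All 3 lists thus moved the way of the genome at large, and a chromatin peak near a target gene says nothing of repression of its mRNA.

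**Figure D4:**
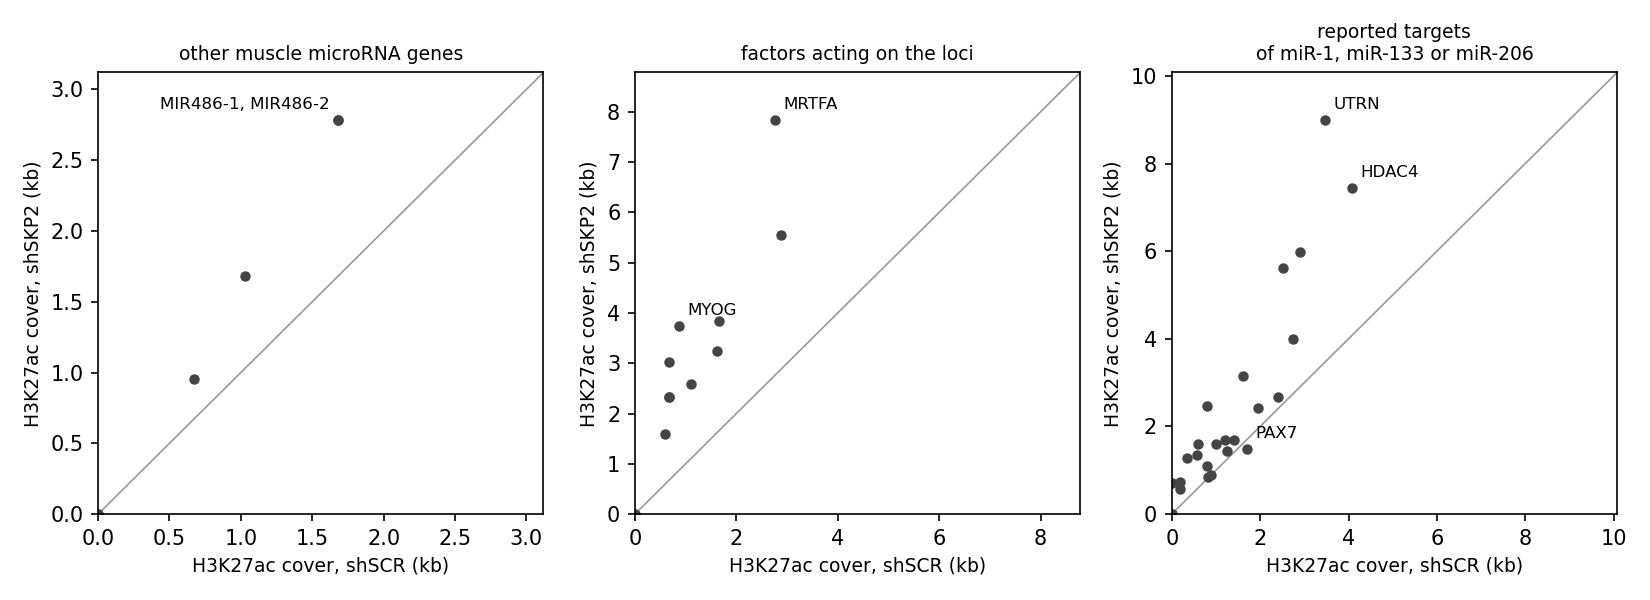
H3K27ac cover in kb within 25 kb of each gene, in shSKP2 cells (vertical axis) against shSCR cells (horizontal axis), for the 3 lists of related genes, 1 point per gene; the line marks equal cover. Points lie above the line for 4 of 6 other muscle microRNA genes, 10 of 11 factors and 22 of 25 reported targets, with PAX7 below it, at 1.50 kb in shSKP2 cells and 1.71 kb in shSCR cells.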

How the data were processed

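ChIP-seq of MYOD and of H3K27ac in RD cells was analysed from 4 deposited peak lists, 1 per library. The authors digested the chromatin with micrococcal nuclease, aligned reads to GRCh38 with BWA 0.7.17 and called peaks with MACS3 in narrow mode against input, keeping duplicates, and removed peaks in the ENCODE exclusion list. The study had 1 replicate per condition, so there were none to pool. The stated calling options do not mention spike-in scaling. The deposited lists give each peak's fold of the summit over local background (a ratio), the −log10 p and −log10 q, and a score, which is −log10 p times 10. The lowest −log10 p in each list was just above 4, although a threshold equal to 5 is stated, and 2.41% to 4.13% of peaks lay under 5. In each H3K27ac list 1 peak off the main chromosomes was left out.

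Fragments at the summit and their background were solved from fold and −log10 p under the Poisson model of MACS3, to within 0.00069 in −log10 p, and gave the 95% exact Poisson intervals. The step was tested on simulated data. Cover is the length of the union of peaks in the gene (GENCODE release 44, hg38) plus 25 kb on each side. A peak with 1 bp of overlap in the other group counts as shared. RefSeq (GRCh38.p14) gave microRNA and promoter sequences. Python 3.11.15, numpy 2.4.6, scipy 1.17.1 and matplotlib 3.10.9 were used.

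Named were the 6 members, all genes and peaks in their windows and, of each list, the genes with the 2 largest rises and falls in H3K27ac cover and those with MYOD peaks in 1 group only. The members and lists were chosen with earlier results of these data known. Alternatives were windows of 10 and 50 kb, −log10 p of at least 5 or 10, lists of equal length, other overlaps and other E-box windows and motifs.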

Additional observations from a re-analysis of the deposited data

How the results depend on the processing

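Of 65 alternative values, 46 stayed within 1.5 times the reported value or, for shares, its Wilson interval, 19 moved and 0 reversed. Counts and shares cannot change sign, so only differences in cover could have reversed. The MYOD difference at MIR1-2/MIR133A1 could not either, as it was 0 kb in every setting and was counted as unmoved. With 50 kb on each side the difference (shSKP2 minus shSCR) was 1.53 kb for MYOD and 1.88 kb for H3K27ac at MIR1-1/MIR133A2 and 0.948 kb and 2.38 kb at MIR206/MIR133B, and 5 MYOD peaks of shSKP2 cells had no shSCR counterpart. With 10 kb, H3K27ac at MIR1-2/MIR133A1 fell away to 0 kb. Among peaks with −log10 p 10 or higher, the MYOD difference at MIR206/MIR133B was 0.051 kb and 1 MYOD peak lacked a counterpart. With lists cut to equal length, the H3K27ac difference at MIR206/MIR133B was 0.262 kb and 3 H3K27ac peaks lacked a counterpart. The share of gene windows with more MYOD cover in shSKP2 cells was 14.3% with 10 kb, 29.1% with 50 kb, 20.2% at a −log10 p of at least 5, 12.4% at 10 and 13.8% with lists of equal length, and that for H3K27ac was 41.1%, 63.9%, 44.7% (at 10) and 44.2% (equal length). No paired analysis was possible because the labels give 1 library per group and no replicate numbers. Depth is unknown, and 11 to 49 summit fragments per peak limit the precision.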

Other observations

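Beyond the windows, up to 50 kb from the genes, further peaks stood near both loci that held MYOD, and 0 near MIR1-2/MIR133A1. Upstream of MIR206/MIR133B, 2.21 kb outside the window, a MYOD peak was called in shSKP2 cells alone (chr6:52116680-52117140, 461 bp, 9.60-fold over local background, −log10 p 31.0), above the fold of every MYOD peak inside the windows. An H3K27ac peak called in shSKP2 cells alone overlapped this MYOD peak (chr6:52116913-52117178, 3.62-fold). Another H3K27ac peak, called in both groups, ended just short of the MYOD peak. It reached 3.49-fold in shSKP2 cells (chr6:52116111-52116560) and 3.97-fold in shSCR cells (chr6:52116151-52116573). Farther upstream, a MYOD peak was called in both groups, at 6.94-fold in shSKP2 cells (chr6:52108236-52108606) and 5.99-fold in shSCR cells (chr6:52108374-52108576).

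Upstream of MIR1-1/MIR133A2, a MYOD peak of 1101 bp in shSKP2 cells (chr20:62511448-62512548, 7.05-fold) stood where shSCR cells had peaks of 227 bp (3.17-fold) and 635 bp (6.14-fold). An H3K27ac peak there ran over 1166 bp at 8.86-fold in shSKP2 cells (chr20:62511166-62512331), against 345 bp at 4.62-fold in shSCR cells (chr20:62511908-62512252). Beside it, a weaker H3K27ac peak called in both groups ran over 453 bp at 4.33-fold in shSKP2 cells and 250 bp at 3.22-fold in shSCR cells. These sites lay 16.25 to 17.57 kb outside the window.

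The microRNA genes whose cover in the 4 libraries was most like that of each locus, by Euclidean distance of log2(kb + 0.1), were MIR3163 (distance 1.06), MIR126 (1.35) and MIR551A (1.45) for MIR1-1/MIR133A2. For MIR206/MIR133B they were MIR8056 (0.27), MIR4259 (0.32) and MIR5739 (0.41). For MIR1-2/MIR133A1, which has a single peak, MIR3160-1, MIR3122 and MIR4478 lay at 0.0066, 0.011 and 0.024. MIR126, for example, had MYOD cover of 0.540 kb in shSKP2 cells and 0.274 kb in shSCR cells, and H3K27ac cover of 1.08 kb in shSKP2 cells and 0 kb in shSCR cells.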
